A study of Mus musculus with 15 samples.

Results

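The subject is a set of 10 mouse genes of amino acid sensing, stress kinase and mTOR signalling, read in sperm DNA. They are the kinases Eif2ak1, Eif2ak2, Eif2ak3 and Eif2ak4, their shared downstream factor Atf4, the mTOR kinase Mtor with the partners Rptor and Rictor, and the sensors Sesn1 and Sesn2. Members were the CpGs inside each gene's RefSeq span in mm10 plus 2 kb on either side. All 10 genes held listed CpGs, 132 in all of the 204492 positions in the deposited lists, and none had to be left out. The libraries were made from sperm of male C57BL/6 mice of generation G1 by reduced representation bisulfite sequencing. In this assay the enzyme MspI cuts at CCGG, fragments are treated with bisulfite, and a cytosine that stays unconverted is read as methylated. The 8 PR libraries carry the diet label PR, which the series' design text spells out as protein restricted, and the 7 Control libraries carry the label Control. The labels give no age, no litter, no allele or transgene, and do not say whether the sampled mouse or a parent ate the diet. Nothing in them says that libraries come from separate mice, so p-values measure at most the spread between libraries, which may be technical. Where that spread was below the spread of independent reads, the quasi-binomial p-values rest on the latter, since the dispersion was held at 1 or more. The ratio of the first variance to the second had a median of 0.950 over the 132 CpGs. Title numbers run from 30 to 44 in PR and from 1 to 24 in Control, some of them consecutive, and the labels do not say whether they mark litter, order or batch. If they do, diet and that factor cannot be told apart, and libraries may not be independent.

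Cells read a shortage of amino acids through a pair of pathways. Uncharged transfer RNA activates GCN2, the product of Eif2ak4, and the related kinases respond to haem shortage (HRI, from Eif2ak1), double-stranded RNA (PKR, from Eif2ak2) and unfolded protein in the endoplasmic reticulum (PERK, from Eif2ak3). Each phosphorylates the translation initiation factor eIF2, which lowers general translation and raises translation of the transcription factor ATF4. The mTOR kinase drives growth when amino acids are present. It works with raptor (Rptor) in the complex mTORC1, which is the nutrient-responsive one, and with rictor (Rictor) in the separate complex mTORC2. Sestrins hold back mTORC1, and sestrin 2 is known as a leucine sensor. In sperm, DNA is methylated over most of the genome and mostly free of methylation at CpG-rich promoters.

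Every listed position had at least 11 methylated reads in every library, so a CpG with little methylation at ordinary depth is not in the lists. The promoter table holds 12 windows for them, each from 250 bases before to 50 after an annotated start, and 0 of the 12 held a listed CpG. Over all 32851 promoter windows 0.98% held one, and among the 13594 windows with at least as many CpGs as the poorest of the 12 it was 0.199%. The 12 windows held 11 to 47 CpGs each, with a median of 21.5, against a median of 7 over all windows. MspI sites (CCGG, the same on both strands) were present in 10 of the 12, against 52.8% of all windows. No listed CpG lay within 1 kb of any of the 12 starts, which holds for most starts, since 5.46% of all windows have one that near. The nearest was 1348 bases past the start of Atf4. The bases before the starts of the genes whose values are followed most closely here are shown as an example of sequence with no listed CpG. They are RefSeq sequence of build GRCm38.p6, all on the plus strand, given up to the base before the start used for the window, with CCGG in capitals. For Eif2ak3 that start is 70844515, while the gene span and the distances begin at 70844484, so its stretch reaches into the span.
Atf4, chr15:80254934-80255183: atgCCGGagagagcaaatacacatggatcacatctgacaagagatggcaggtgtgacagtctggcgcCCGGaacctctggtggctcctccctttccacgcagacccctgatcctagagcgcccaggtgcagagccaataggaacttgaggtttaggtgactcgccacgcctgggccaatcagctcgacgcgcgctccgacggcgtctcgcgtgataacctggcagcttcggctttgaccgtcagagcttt
Eif2ak3, chr6:70844265-70844514: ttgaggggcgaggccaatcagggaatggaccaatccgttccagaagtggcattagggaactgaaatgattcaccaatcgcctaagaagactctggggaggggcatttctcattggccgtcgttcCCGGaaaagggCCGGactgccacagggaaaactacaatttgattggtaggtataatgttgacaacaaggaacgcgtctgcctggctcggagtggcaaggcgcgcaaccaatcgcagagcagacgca
Mtor, chr4:148448332-148448581: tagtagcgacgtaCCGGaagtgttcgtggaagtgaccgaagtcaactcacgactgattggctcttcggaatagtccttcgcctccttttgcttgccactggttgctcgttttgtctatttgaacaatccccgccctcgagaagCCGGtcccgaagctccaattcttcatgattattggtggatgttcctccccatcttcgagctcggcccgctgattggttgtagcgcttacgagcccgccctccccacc
These stretches hold 18, 14 and 19 CpGs in the order given, and 2 MspI sites each. Since positions with few methylated reads are not listed, the missing values say nothing of a diet difference at the starts.

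Depth over all listed positions, summed as reads at each CpG, ran from 6650912 to 10712016 in PR and from 7846118 to 11841657 in Control libraries. No pair of the 105 library pairs had identical counts. PR replicate 6 was the shallowest library. It was also the lowest in Eif2ak1, in Mtor and at single sites of Eif2ak2, Eif2ak4 and Mtor below, and the highest in Rictor and Sesn2. The part of depth in that was not tested. Over the 132 CpGs the libraries held 3379 to 5925 reads, and the mean coverage of a CpG ran from 17.4 to 102.2 reads. Stretches upstream of paternally methylated imprints, whose methylation sperm carries, were also read. In them, 3 CpGs upstream of Meg3 averaged 98.0% over all libraries and 4 upstream of Rasgrf1 92.5%, and the region upstream of H19 had no listed CpG. Most listed CpGs are highly methylated anyway, so these values cannot check the sperm label. Of 8 maternally methylated imprinted genes with an annotated start, 0 had a listed CpG within 1 kb, so that side gave no values.

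Most listed CpGs of the 10 genes were almost fully methylated in sperm of both diets. The lists leave out weakly methylated sites at ordinary depth, so high levels are partly built in and do not describe whole gene bodies. At gene level Atf4 stood apart, with a mean of 67.6% over all libraries. The median CpG had a mean of 98.3% over all libraries, against 98.2% over all listed CpGs. Of the 132, 126 had a mean of 90% or more, which is 95.5%, against 89.7% of all listed CpGs. The exceptions were 6 CpGs, 2 of them in Atf4 and 1 each in Eif2ak1, Eif2ak4, Sesn1 and Sesn2. Sites inside the gene spans numbered 123, and 9 lay in the flanks of Eif2ak2, Eif2ak3 and Sesn1. The 3 flanking CpGs of Sesn1 fall within its neighbour Armc2, 2 CpGs of Eif2ak2 within the pseudogene Gm6548, and 2 of Rptor within the lncRNA gene Rptoros. The gene table gives neither exons nor introns, so finer positions were not analysed here. A level is a share of reads from many cells, and partial methylation in all cells cannot be told apart from full methylation in some.

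**Figure D1:**
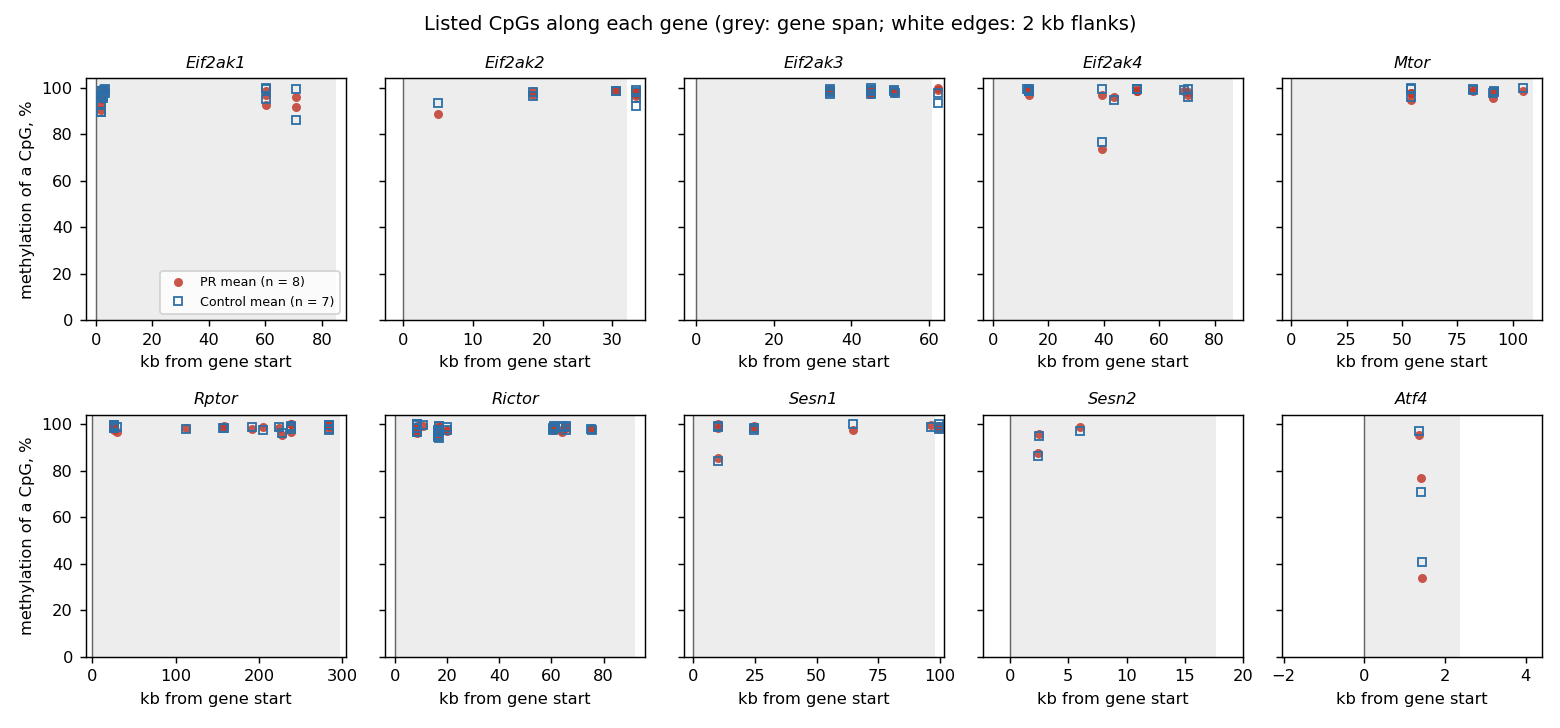
Methylation of each listed CpG (vertical axis, percent, mean over the libraries of a diet) against its distance from the gene start (horizontal axis, kb), in 1 panel per gene. Filled circles are PR means (n = 8), open squares Control means (n = 7), grey the gene span. Points lie near 100% in all panels except single CpGs of Eif2ak1, Eif2ak4, Sesn1 and Sesn2 and the steep drop over 3 CpGs of Atf4.

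No CpG, gene or window differed between the diets after adjustment, and the 10 genes were no exception. Methylated and total counts at every CpG were fitted with a quasi-binomial logistic model, whose p-values were adjusted by Benjamini-Hochberg over all 204492 positions. At an adjusted p under 0.05 it called 0 of the 132 CpGs and 0% of all. At an unadjusted p under 0.05 there were 5 of the 132, or 3.79%, and 3.79% of all CpGs, so the share in these genes equals the background. Of the 5, 1 was higher in PR, where 1.89% of all CpGs were, and 4 were lower, where 1.9% were. The limma test on percentages called 0 of all CpGs too, with 7 of the 132, or 5.3%, at an unadjusted p under 0.05, against 4.56% of all. PR minus Control was positive at 65 of the 132 CpGs, negative at 66 and exactly 0 at 1, with a median of -0.00104 points and a range from -6.98 to 6.41 points. The ranges of PR and Control libraries overlapped at all 132 CpGs, and failed to overlap at 0.0191% of all CpGs.

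**Figure D2:**
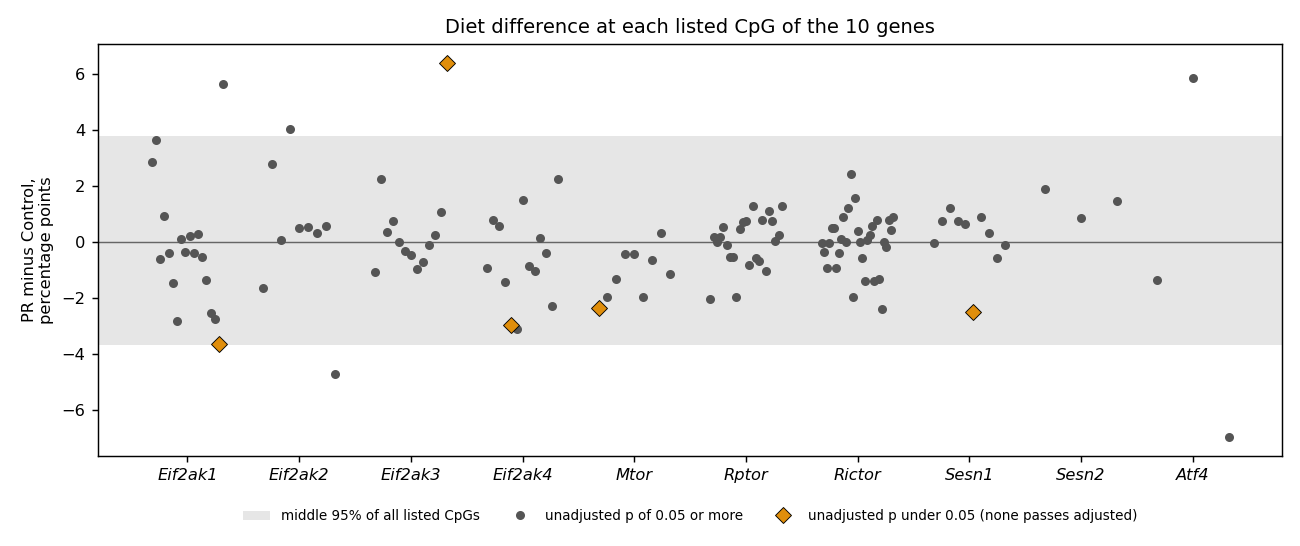
PR minus Control in percentage points (vertical axis) at each of the 132 CpGs, by gene and in order of position. Diamonds have an unadjusted quasi-binomial p under 0.05 and none of them passes after adjustment. The grey band holds the middle 95% of all listed CpGs, from -3.68 to 3.78 points, and 6 of the 132 lie outside it.

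At gene level, methylated and total counts were summed over the CpGs of each gene and every one of the 20804 genes with a listed CpG was tested. The quasi-binomial test called 0 of the 10 genes and 0% of all at an adjusted p under 0.05, and 0 of the 10 at an unadjusted p under 0.05, against 3.06% of all genes. The exact permutation test, two-sided and over all 6435 assignments of diet labels, called 0% of all genes after adjustment, and at an unadjusted p under 0.05 it had 1 of the 10, Mtor, against 4.59% of all. Differences at gene level were positive for 6 genes and negative for 4, and the largest was 1.32 points. In all 10 genes the ranges of the diets overlapped, and in 0.024% of all genes they did not. Windows of 1000 bp with at least 3 listed CpGs gave the same count. Of 22 windows that hold CpGs of the 10 genes none passed, where 0% of all windows did, and none had an unadjusted p under 0.05, against 3.33% of all windows. Their differences ran from -2.16 to 1.38 points.

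**Figure D3:**
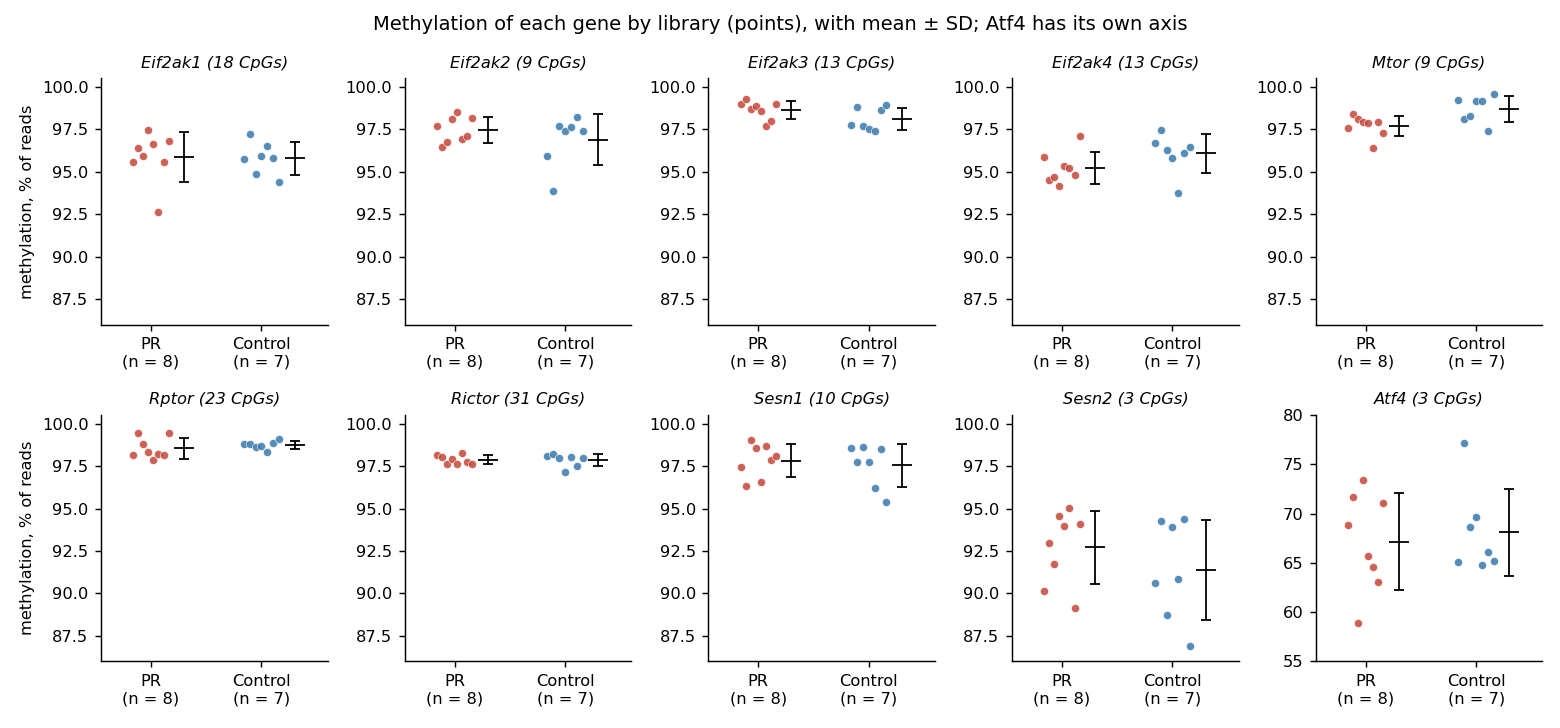
Methylation of each gene in each library (vertical axis, percent of reads summed over the CpGs of the gene), PR (n = 8) left and Control (n = 7) right. Bars give the mean ± SD. The diets overlap in all 10 panels, and Atf4 sits between 58.9% and 77.1% while the other 9 genes are above 86%.

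Eif2ak1, the gene of the haem-regulated kinase HRI (chromosome 5, 143817792 to 143902717), had 18 CpGs, 13 of them within 5 kb of its start. PR libraries were at 92.6% at the lowest, 96.2% at the median and 97.4% at the highest, and Control libraries at 94.4%, 95.8% and 97.2%. The PR range enclosed the Control range. Means were 95.9% ± 1.46 (SD, n = 8) in PR and 95.8% ± 0.953 (SD, n = 7) in Control, a difference of 0.0798 points with an exact permutation p of 0.917 and a 95% interval from -1.34 to 1.37. The lowest library was PR replicate 6, with 447 reads over the gene, the fewest at this gene, and leaving this library out gave 0.545 points. The 13 CpGs near the start were at 96.0% ± 1.70 (SD, n = 8) in PR and 95.8% ± 0.865 (SD, n = 7) in Control, and single sites among them averaged 90.2% to 99.0%. The remaining 5 lay 60 to 71 kb into the gene, and a pair of these 163 bases apart went opposite ways. At position 143888476 PR libraries ran from 86.4% to 100% with a median of 96.3%, and Control libraries from 97.0% to 100% with a median of 100%. That difference of -3.65 points had a quasi-binomial p of 0.0413, which was 1 after adjustment. The limma p was 0.0385 before and 0.959 after adjustment, and the unadjusted exact permutation p was 0.0306. Leaving out PR replicate 2 gave -2.29 points and an unadjusted quasi-binomial p of 0.101. At 143888639, the lowest and most variable site of the gene, PR libraries ran from 82.9% to 100% (median 91.1%) and Control libraries from 75.8% to 97.1% (median 83.8%), 5.66 points higher in PR with an unadjusted p of 0.18.

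Eif2ak1 also had the highest gene-level dispersion of the 10, 2.33, where 11% of all genes are above 2. Dispersion is the variance between libraries over that of independent reads. Neighbouring CpGs near its start have nearly equal read counts and may share reads, which alone can lift the value above 1, so it does not show how much libraries differ. The genes whose level followed it most closely over the 15 libraries, among 1776 with at least as many CpGs, were Ctbp2 (Pearson r = 0.79), Myt1l (r = 0.783) and Reep3 (r = 0.767). These points share library and depth, and picking the highest of so many gives high values by itself.

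Eif2ak2 encodes PKR, which binds double-stranded RNA of viruses (chromosome 17, 78850504 to 78882572). Its 9 CpGs gave 96.5%, 97.4% and 98.5% as lowest, median and highest PR library, and 93.9%, 97.4% and 98.2% in Control. The medians were nearly equal and Control replicate 2 was the lowest library. The difference was 0.587 points (95% interval -0.614 to 1.91, exact permutation p = 0.384), and 0.0861 points without Control replicate 2. The lowest and most variable site, 78877560, is the one nearest the start, 5012 bases into the gene. It was at 88.7% ± 5.29 (SD, n = 8) in PR and 93.4% ± 5.0 (SD, n = 7) in Control. PR replicate 6 was the lowest library there, at 78.6%. The mean over all libraries was 90.9%, and 91.7% without PR replicate 6. The smallest p in the gene belonged to 78849149, in the flank past its end, with 98.4% ± 2.01 in PR and 95.6% ± 5.30 in Control and an unadjusted p of 0.211.

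Eif2ak3, the gene of the endoplasmic reticulum kinase PERK (chromosome 6, 70844484 to 70905241), held the site with the smallest p of the 132. Position 70906912 lies 62.4 kb from the start, in the flank past the gene's end. All 8 PR libraries were at 100% there. The Control libraries were at 89.5%, 92.9% and 100% as lowest, median and highest, with 1 of the 7 at 100%. Summed over libraries, 0 of 233 PR reads and 12 of 202 Control reads were unmethylated. The difference of 6.41 points (100% against 93.6% ± 3.66) had a quasi-binomial p of 0.000807, which was 1 after adjustment. The limma p was 0.000124 before and 0.85 after adjustment, and the unadjusted exact permutation p was 0.0014. With no lower limit on the dispersion, which was 0.296 here, the site's adjusted quasi-binomial p was 0.0132 and 194 of all CpGs passed. The CpG 25 bases away, 70906887, covered by about as many reads, was at 98.9% ± 2.07 (SD, n = 8) in PR and 97.8% ± 2.79 (SD, n = 7) in Control. Over the 13 CpGs of the gene the lowest, median and highest libraries were at 97.7%, 98.8% and 99.3% in PR and at 97.4%, 97.7% and 98.9% in Control. That is a difference of 0.541 points with an exact permutation p of 0.0988 and a 95% interval from -0.129 to 1.21. The 11 CpGs inside the gene alone gave 0.0792 points (exact permutation p = 0.818), and a flank of 10 kb gave -0.476 points. The site that varied most within the diets, 70889664, was at 97.4% ± 4.18 in PR and 98.4% ± 2.99 in Control.

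Eif2ak4 encodes GCN2, the kinase activated when amino acids run short (chromosome 2, 118388583 to 118475234). Its 13 CpGs lie from 12.4 to 70.6 kb into the gene. PR libraries were at 94.2%, 95% and 97.1% as lowest, median and highest, and Control libraries at 93.8%, 96.3% and 97.5%. The difference of -0.868 points was within the spread (95% interval -1.96 to 0.304, exact permutation p = 0.127), with 1 of 8 PR libraries above the Control mean. Of its CpGs 12 averaged 90% or more, and the exception was 118428099. There PR libraries ran from 51.7% to 84.8% with a median of 77.2%, and Control libraries from 65.0% to 87.0% with a median of 76.9%. PR replicate 6, with 29 reads at the site, was the lowest. Only 110 bases away, 118427989 averaged 98.1% over all libraries, and all 15 libraries were lower at 118428099 than there. At 118427989 itself PR was at 96.7% ± 3.28 and Control at 99.7% ± 0.922. The difference of -2.96 points had a quasi-binomial p of 0.0188, which was 1 after adjustment. The limma p was 0.0322 before and 0.959 after adjustment, and the unadjusted exact permutation p was 0.0368.

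Atf4, the transcription factor that the kinases converge on, is a short gene (chromosome 15, 80255184 to 80257545) with 3 CpGs, from 1348 to 1423 bases past its start. It was the least methylated of the 10, with 2.39% of all genes lower. Methylation dropped steeply over these 75 bases in both diets. The first site, 80256532, was at 95.6% ± 4.11 (SD, n = 8) in PR and 97.0% ± 2.48 (SD, n = 7) in Control. The second, 80256591, ran from 65.4% to 85.7% in PR with a median of 76.8%, and from 62.9% to 86.4% in Control with a median of 66.7%. The third, 80256607, only 16 bases on, ran from 20.0% to 57.1% in PR with a median of 30.8%, and from 24.1% to 51.9% in Control with a median of 41.9%. Every one of the 15 libraries was lower at the third site than at the second, by 37.0 points on average. The diets went opposite ways at these neighbours, 5.85 points higher in PR at the second (unadjusted quasi-binomial p = 0.173) and -6.98 points at the third (unadjusted p = 0.295), both within the spread between libraries. Summed over the gene the difference was -0.921 points, with a 95% interval from -6.25 to 4.26 and an exact permutation p of 0.712. The third site was close to the limit of the lists, because the lowest library had 11 methylated reads there, exactly the minimum, and the CpGs farther into or out of this slope are not listed.

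**Figure D4:**
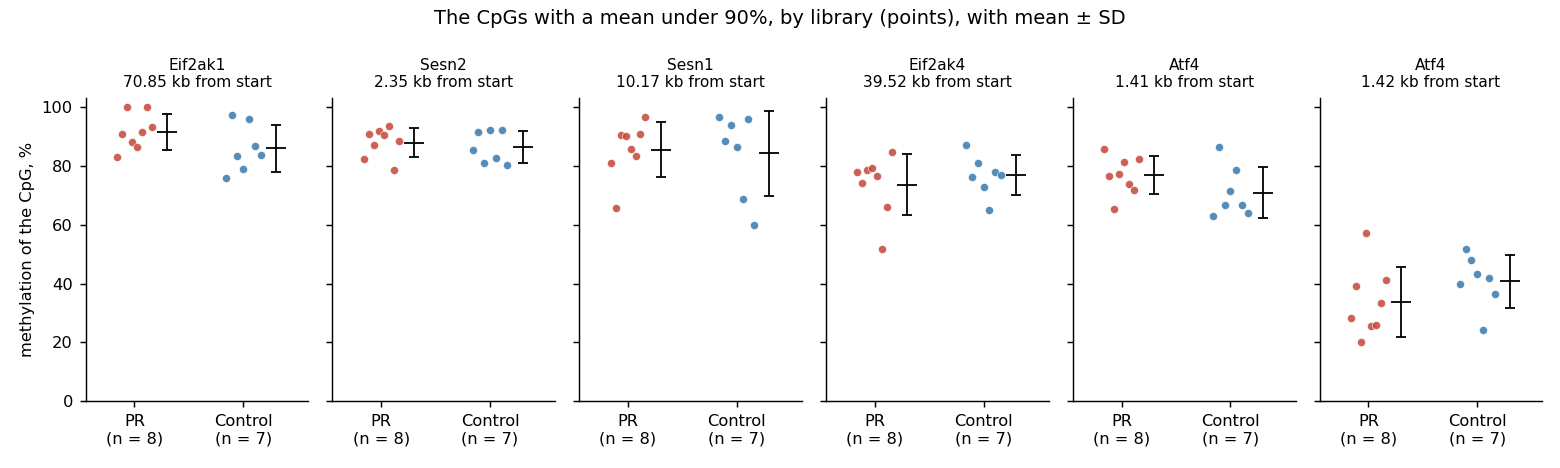
Methylation (vertical axis, percent) of the 6 CpGs with a mean under 90%, by library, PR (n = 8) left and Control (n = 7) right, with mean ± SD. The panels run from 88.9% on average at the Eif2ak1 site to 37.1% at the lower Atf4 site, and PR and Control overlap in each.

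Mtor, the kinase at the centre of both mTOR complexes (chromosome 4, 148448582 to 148557685), had the smallest permutation p of the 10. PR libraries were at 96.4% at the lowest, 97.9% at the median and 98.4% at the highest, and Control libraries at 97.4%, 99.2% and 99.6%. All 8 PR libraries were below the Control mean, though the ranges overlapped. Means were 97.7% ± 0.606 (SD, n = 8) in PR and 98.7% ± 0.788 (SD, n = 7) in Control, a difference of -1.02 points with an exact permutation p of 0.0157, an adjusted p of 1 over all genes, and a 95% interval from -1.79 to -0.232. The quasi-binomial p was 0.0518 before adjustment. Of the 9 CpGs, 8 had a lower mean in PR, but all except 1 lie in 3 tight clusters, where neighbours can sit on the same fragments and are then not independent. At 148502491, 53.9 kb from the start, all Control libraries were at 100% and PR libraries ran from 91.3% to 100% with a median of 98.8%. The unadjusted quasi-binomial p there was 0.0154 (adjusted p = 1), while limma gave 0.0637 and the exact permutation test 0.0769, both unadjusted. Unmethylated reads numbered 6 of 253 in PR and 0 of 228 in Control. The difference was -2.36 points, or -1.46 points without PR replicate 7. The site 62 bases on, 148502553, the lowest and most variable of the gene, was at 94.8% ± 6.66 in PR and 96.2% ± 4.39 in Control. Coverage was thin, with a mean of 26.1 reads per CpG and 168 to 283 reads over the whole gene per library. PR replicate 6, the library with 168, was the lowest in level. Total reads per library were fewer over Sesn2 (81 to 242) and Atf4 (67 to 205), which have 3 CpGs each.

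Rptor, whose product raptor brings substrates to mTORC1, is the longest gene (chromosome 11, 119602905 to 119899591) with 23 CpGs. All averaged 95.9% or more. PR libraries were at 97.8%, 98.3% and 99.5% as lowest, median and highest, and Control libraries at 98.3%, 98.8% and 99.1%, so Control lay inside the PR range. The difference was -0.197 points (95% interval -0.726 to 0.339, exact permutation p = 0.428), and it was -0.0965 points without PR replicate 5, -0.322 without PR replicate 2 and -0.326 without PR replicate 8. Its smallest p was at 119628777, with 97.7% ± 2.32 in PR and 99.7% ± 0.756 in Control and an unadjusted quasi-binomial p of 0.0759. The limma p there was 0.0462 before and 0.959 after adjustment, and the unadjusted exact permutation p was 0.0381. The lowest site was 119831135, inside Rptoros, with 95.6% ± 5.30 in PR and 96.3% ± 3.28 in Control, and the most variable was 119841620, with 97.0% ± 4.76 in PR and 98.0% ± 4.16 in Control.

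Rictor, the gene of the defining subunit of mTORC2 (chromosome 15, 6708349 to 6800401), had the most CpGs, 31, and the smallest SD between PR libraries. Levels in PR were 97.6%, 97.8% and 98.3%, and in Control 97.2%, 98.0% and 98.2%, as lowest, median and highest. Its dispersion of 0.466 was the lowest of the 10 genes. The difference of 0.0264 points had a 95% interval from -0.321 to 0.383 (exact permutation p = 0.874), the narrowest of the set. The site with the lowest mean, 6724890, was at 94.7% ± 1.82 in PR and 94.6% ± 4.24 in Control. The most variable site, 6725353, was at 96.5% ± 4.22 in PR and 94.1% ± 3.85 in Control, and the smallest p was at 6772202, with 96.8% ± 3.31 in PR and 99.2% ± 1.30 in Control (unadjusted quasi-binomial p = 0.0782).

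Sesn1, a sestrin induced by p53 and FoxO factors (chromosome 10, 41810574 to 41908436), had 10 CpGs. The PR libraries stood at 96.3%, 98.0% and 99.0%, and the Control libraries at 95.4%, 97.8% and 98.6%, as lowest, median and highest. The difference was 0.28 points (95% interval -0.974 to 1.55, exact permutation p = 0.632). The site 41820742 had the highest dispersion of the 132, 2.97. It ran from 65.6% to 96.4% in PR (median 87.9%) and from 60.0% to 96.6% in Control (median 88.2%), with low libraries in both diets, while the site 100 bases away, 41820642, averaged 99.6% over all libraries. At 41875209 all Control libraries were at 100%, and PR was at 97.5% ± 2.95 (unadjusted quasi-binomial p = 0.0189, adjusted p = 1). Unadjusted, limma gave a p of 0.039 there and the exact permutation test 0.0769.

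Sesn2 encodes the leucine-binding sestrin that releases its hold on mTORC1 activation when leucine is bound (chromosome 4, 132492804 to 132510456, minus strand). It was, after Atf4, the least methylated of the set over its 3 CpGs. PR libraries gave 89.1%, 93.5% and 95.1%, and Control libraries 86.9%, 90.8% and 94.4%, as lowest, median and highest. PR minus Control was 1.32 points, less than either SD (95% interval -1.55 to 4.2, exact permutation p = 0.33), and 0.575 points without Control replicate 7 or 0.881 points without Control replicate 3. The lowest site, 132508101, lies 2355 bases past the start and was at 87.9% ± 5.03 (SD, n = 8) in PR and 86.4% ± 5.39 (SD, n = 7) in Control. The site 98 bases away averaged 95.4%, and 14 of 15 libraries were lower at 132508101. The third site, 132504454, was at 99.0% ± 1.84 in PR and 97.1% ± 3.63 in Control, with an unadjusted quasi-binomial p of 0.515.

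The rest of both pathways was read from 3 lists. Of mTORC1 nutrient sensors and their lysosomal partners, 23 of 34 genes in the table had listed CpGs. None passed, and none had an unadjusted p under 0.05, with 13 differences positive and 10 negative and a median of 0.0991 points, against -0.00577 over all genes. Of mTOR complex subunits and substrates, 19 of 24 had CpGs, 10 with a positive and 9 with a negative difference and a median of 0.0139 points. None passed, and 1 had an unadjusted p under 0.05, higher in PR where 1.61% of all genes were (1.45% were lower). That was Rps6kb1, the gene of S6 kinase, a direct mTORC1 substrate (16 CpGs). Its PR libraries were at 97.2%, 98.2% and 98.7% as lowest, median and highest, and its Control libraries at 96.9%, 97.4% and 98.3% (unadjusted quasi-binomial p = 0.0467, adjusted p = 1). Of integrated stress response partners and targets, 21 of 28 had CpGs, none with an unadjusted p under 0.05, 10 positive and 11 negative, with a median of -0.00516 points.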

How the data were processed

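Per the file headers, the authors deposited raw counts of methylated reads and of all reads per CpG, not normalized. Per the submitters' processing notes, Bismark 0.7.12, Bowtie2 2.1.0 and mm10 were used, in roles not stated. Filters and strand merging: not given in the sources used here. Percent methylation was methylated over total counts. Gene spans and promoter windows came from RefSeq (GRCm38.p6, the same build), and all 10 genes matched by symbol. The quasi-binomial F test (13 residual degrees of freedom, dispersion of at least 1) was fitted over all CpGs, all genes and all windows, with Benjamini-Hochberg adjustment. Exact permutation intervals came from inverting the test at the 95% level. Percentages were also tested with limma 3.58.1 in R 4.3.3. Python 3.11.15 and scipy 1.17.1 were used. In each gene the CpGs with the smallest p, the lowest mean and the largest within-diet SD were named. Members and lists were chosen with earlier results of these data known. Replicates were numbered in accession order. The labels name no molecular identifiers.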

Additional observations from a re-analysis of the deposited data

Results flagged for a closer look

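Among 64 groups examined (the 10 gene levels and 22 named CpGs in each diet), 10 held a library far from the others of its diet. The rate of about 1 in 20 that chance gives does not apply here, since the CpGs were named for a low mean, a large SD or a small p, and where all other libraries sit at 100% any lower value stands apart. Over the CpGs of Eif2ak1, PR replicate 6 was at 92.6% and the other PR libraries at 95.6% to 97.4%. Over those of Atf4, Control replicate 2 was at 77.1% and the other Control libraries at 64.7% to 69.7%. At Eif2ak1 143888476, PR replicate 2 was at 86.4% and the other PR libraries at 95.2% or more, and Control replicate 1 was at 97.0% with the other Control libraries at 100%. At Eif2ak2 78849149, Control replicate 2 stood at 84.6% with its fellows at 93.9% or more. At Eif2ak3 70889664, PR replicate 7 was at 88.5%, against 94.7% or more. At Eif2ak4 118427989, Control replicate 7 was at 97.6% and the other Control libraries at 100%. At Mtor 148502553, PR replicate 6 was at 80%, against 93.3% or more. At Rptor 119628777, Control replicate 4 was at 98.0% with the others at 100%, and at Rptor 119841620 it was at 88.9%, against 97.1% or more.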

How the results depend on the processing

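The diet differences followed were 20, namely 10 gene levels and the CpG with the smallest p in each gene. Of these, 14 kept their sign under all alternatives that could be run, leaving out each library included. The 6 that changed sign somewhere were all gene levels. The CpGs had been picked from the same data for a small p. Only leaving out a library could change their differences, because the other settings use the same percentages. With only CpGs of at least 20 reads in every library, 52 of the 132 stayed, none of them in Mtor, 1 had an unadjusted p under 0.05 (3.47% of all CpGs kept did), and the Sesn1 difference was -0.126 points. Without a lower limit on the dispersion 10 of the 132 (7.58%) had an unadjusted p under 0.05, as had 7.83% of all CpGs, and 194 CpGs, 1 gene (none of the 10) and 2 windows passed over the whole table. With 10 kb on either side the Eif2ak3 difference was -0.476 points. With unweighted means of CpG percentages the differences were -0.174 points for Eif2ak1, 0.000913 for Rptor and -0.0157 for Rictor. Leaving out each library in turn gave -0.155 to 0.545 points for Eif2ak1, -0.0856 to 0.083 for Rictor, -0.0801 to 0.494 for Sesn1 and -1.82 to 0.587 for Atf4. The cause of these changes was not tested. Mtor stayed between -1.24 and -0.835 points. Some unadjusted exact permutation p-values crossed 0.05 that way (Eif2ak3 to 0.035 without PR replicate 6 and 0.0423 without Control replicate 7, Eif2ak4 to 0.0163 without Control replicate 5 and 0.0379 without PR replicate 8), none after adjustment. No paired analysis was possible because the labels do not link any PR library to a Control library, and their title numbers do not overlap between diets. Mean coverage of 17.4 to 102.2 reads per CpG limits single sites, where 1 read moves a percent by up to several points, and intervals cover the spread between libraries only.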

Other observations

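Some genes in the pathway lists stood well below the level of most genes, and 3 of them are given here, chosen after their values were seen. The single CpG of Eif2b4, a subunit of the exchange factor that eIF2 phosphorylation inhibits, was at 40% ± 6.70 (SD, n = 8) in PR and 34.0% ± 6.89 (SD, n = 7) in Control, with an unadjusted quasi-binomial p of 0.132. The 2 CpGs of Castor1, an arginine sensor of mTORC1, were at 54.0% ± 5.73 in PR and 52.4% ± 4.62 in Control. The 4 CpGs of Chac1, a glutathione-degrading target of ATF4, were at 80.9% ± 6.71 in PR and 82.9% ± 4.29 in Control.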
